A study of Homo sapiens with 6 samples.

Results

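Keratins are the intermediate filament proteins of epithelial cells. They fall into type I (acidic) and type II (basic to neutral) proteins, and a filament forms only when a type I chain pairs with a type II chain, so that a cell needs both. KRT8 with KRT18 is the first pair made by simple, single-layered epithelia, KRT7 and KRT19 join it in ducts and airways, and antibodies to these chains are in routine use to recognise carcinomas of glandular origin. The genes described here are 8 keratins, chosen by symbol, of the 30230 rows of the gene count table: the type I genes KRT18, KRT19 and KRT10 and the type II genes KRT8, KRT7, KRT80, KRT81 and KRT86. All 8 passed the filter on low counts, as did 17076 genes in all. In textbook use the name simple epithelial keratin covers KRT7, KRT8, KRT18 and KRT19 of these. KRT10 is known from the upper layers of the epidermis, KRT80 as a type II keratin found in many epithelia, and KRT81 and KRT86 as hair keratins.

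The study compared polyadenylated RNA of A549 cells, an established human lung adenocarcinoma line, after transfection with a scrambled siRNA (NC, n = 3 libraries) or with an siRNA against FSCN1, the actin-bundling protein fascin (siFSCN1, n = 3 libraries), to ask which transcripts depend on FSCN1. The treatment label of the NC libraries reads control plasmid, where the study's text describes an siRNA. Per that text a single siRNA sequence was used for sequencing, so that the loss of FSCN1 and any other effect of that sequence cannot be told apart, and no untransfected cells were analysed here. The labels do not say whether the libraries of a group came from separate cultures, while the study's text calls them biological replicates. FSCN1 itself was 45.0, 47.2 and 46.0 FPKM (counts scaled by exon length and by the mapped fragments of the library) in the NC libraries, in the order of their replicate numbers 1 to 3, against 4.46, 2.82 and 3.19 in those of siFSCN1. This order is kept throughout. The log2 fold change was -3.89 (SE 0.0937, edgeR adjusted p = 8.1e-16). Library totals ran from 27967301 to 36560919 counts. Markers of fibroblasts (8 of 8 in the table) and endothelial cells (4 of 5) summed to at most 0.77 and 0.04 FPKM in any library. Leukocyte markers (5 of 6) summed to 3.22 to 3.72 FPKM in NC and 4.12 to 5.15 in siFSCN1, mostly from CD14, with PTPRC, their defining gene, at a mean of 0.00333 FPKM in each group. The 8 keratins summed to between 2209 and 4473 FPKM.

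Of the 8 genes, 6 lie in the keratin cluster of chromosome 12 and 2 in that of chromosome 17 (GRCh38, GENCODE annotation). KRT8 (chr12:52897187-52949954, minus strand) and KRT18 (chr12:52948871-52952906, plus strand) stand next to each other, and their annotated exons overlap on opposite strands over 525 bases. The other cluster members on chromosome 12 are KRT80 (chr12:52168996-52192014, minus strand), KRT7 (chr12:52232520-52252186, plus strand), KRT86 (chr12:52249300-52309163, plus strand) and KRT81 (chr12:52285913-52291534, minus strand), which lies inside the span of KRT86. KRT10 (chr17:40818117-40822614, minus strand) and KRT19 (chr17:41523617-41528308, minus strand) are the pair on chromosome 17.

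The hair keratins KRT81 and KRT86 are the members whose reads are hardest to assign, because their coding sequences were identical at 89.6% of aligned positions, with 1 unbroken identical run of 605 bases. By the same alignment KRT7 and KRT8 shared 66.8% and the KRT8 and KRT18 pair 47.4%. Of all stretches of 100 bases in the representative transcript, 30.33% in KRT81 and 27.56% in KRT86 also occurred in a transcript of another gene, against 7.12% in KRT8 and 0% in KRT7, KRT18, KRT19, KRT80 and KRT10. This counts the same strand, and on the opposite strand 18.49% of such stretches in KRT18 occurred in KRT8 and 8.32% of those in KRT7 in its antisense gene KRT7-AS. The following 60 coding bases, at positions 1249 to 1308 of both coding sequences, are shown because they hold 14 of the differences, in capitals, by which a read can be given to either gene.
KRT81: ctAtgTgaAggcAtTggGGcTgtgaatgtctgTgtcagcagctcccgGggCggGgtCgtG
KRT86: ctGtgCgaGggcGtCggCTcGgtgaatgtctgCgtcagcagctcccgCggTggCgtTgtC
The authors kept uniquely mapped reads, so that reads without such a difference may have been left out, and the levels of KRT81 and KRT86 are uncertain. Per the study's methods, reads were paired and longer than the 100 bases counted here. How many were left out was not tested.

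KRT18 has many processed copies in the genome, which touches any assay by short sequences. The study's quantitative PCR primers for KRT18 and KRT7 are shown for that reason. By this PCR, the study reported both genes as decreased after FSCN1 silencing. From its sequencing, tested with DESeq2, it also named KRT18 among the genes at least 2-fold lower. KRT7 was among its differentially expressed genes too, and the study proposed that FSCN1 may bind KRT7 mRNA.
KRT18 forward: gcctacaagcccagattg
KRT18 reverse: agctcctctcggttcttc
KRT7 forward: ggctcctgaaggcttattc
KRT7 reverse: gactgtctcactgtcttgg
The KRT18 forward primer occurred without mismatch in transcripts of 29 genes, 28 of them pseudogenes, and the reverse primer in 11 genes, 10 of them pseudogenes. Both KRT7 primers matched KRT7 transcripts and no other gene. In the libraries themselves, named KRT18 pseudogenes (24 in the table) held 0.0253% ± 0.00109 as many counts as KRT18 in NC and 0.0285% ± 0.00496 in siFSCN1 (SD, n = 3). For KRT8, whose named pseudogenes also number 24 in the table, the values were 0.109% ± 0.00517 and 0.197% ± 0.0293, with each siFSCN1 library above each NC library, while the pseudogene counts themselves overlapped between groups (212 to 325 and 282 to 332).

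All 8 keratins were lower in siFSCN1 than in NC at an adjusted p under 0.05 (edgeR), where 33.2% of all tested genes were lower by that rule. A fall of at least 2-fold was called for 5 of the 8 (KRT7, KRT19, KRT80, KRT81 and KRT86), against 4.85% of all tested genes, and KRT18 missed the limit narrowly. The TMM-scaled CPM (counts relative to the scaled library total) of the groups did not overlap for 8 of 8, against 34.4% of tested genes that were lower without overlap. The median log2 fold change of the 8 was -1.11, beside 0.03 over all tested genes. The 8 were chosen with earlier results of these data known, so that these comparisons with all tested genes are descriptive. Abundant transcripts as a class were lower, with a median of -0.41 over the 320 genes with a mean above 100 FPKM, of which 7.5% were called at least 2-fold lower. In bulk RNA, fewer cells that express a keratin and less keratin RNA per cell cannot be told apart.

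**Figure D1:**
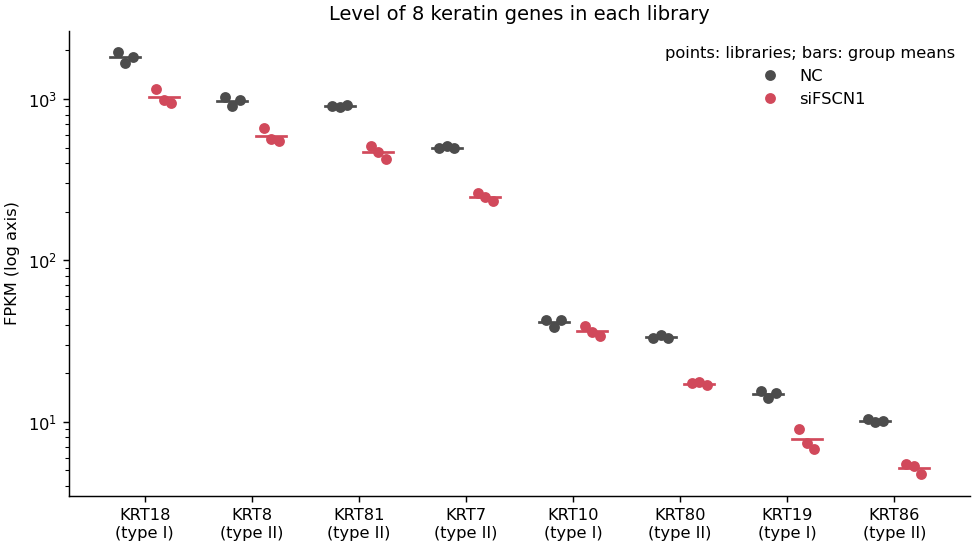
FPKM on a log axis of the 8 keratins, ordered by their mean in NC, with 1 point per library (grey NC, red siFSCN1, n = 3 each) and a bar at each group mean. The red points lie below the grey ones for 7 of the 8 genes, and for KRT10 the groups overlap on this scale.

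KRT18, the type I chain of the primary pair of simple epithelia, had the highest FPKM of the 8. It was 1947, 1675 and 1824 FPKM in the NC libraries and 1157, 984 and 939 FPKM in the siFSCN1 libraries. Every siFSCN1 library was below every NC library, and the means were 1815 ± 136 and 1027 ± 115 FPKM (SD, n = 3). The fitted log2 fold change was -0.99 (SE 0.0637, edgeR adjusted p = 1.5e-10), so that the fitted level in siFSCN1 was 50.4% of NC, just short of a 2-fold fall. KRT18 was called at least 2-fold lower in 5 of the 15 alternatives, which were RLE scaling (-1.01), DESeq2 (-1.02) and the fits without NC replicate 2, NC replicate 3 or siFSCN1 replicate 1.

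KRT8, its type II partner, was 1026, 905 and 989 FPKM in the NC libraries and 658, 569.5 and 549 FPKM in the siFSCN1 libraries. Here too the groups stood apart, with means of 973 ± 61.8 and 592 ± 57.6 FPKM (SD, n = 3). Its fitted change of -0.88 on the log2 scale (SE 0.0583, edgeR adjusted p = 2.1e-10) was smaller than in the other members except KRT10, and KRT8 was not 2-fold lower in any of the 15 alternative analyses.

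KRT7, a type II keratin of ducts and airways and a marker used for lung adenocarcinoma, showed the largest fall of the 8. Its level was 497, 510.0 and 495 FPKM in NC and 261, 246 and 233 FPKM in siFSCN1. The libraries of a group were close together and the groups far apart, at 501 ± 8.02 and 247 ± 14.1 FPKM (SD, n = 3). Its log2 fold change was -1.19 (SE 0.0417, edgeR adjusted p = 4.7e-14), and KRT7 alone among the 8 was at least 2-fold lower in all 15 alternatives, which gave -1.24 to -1.0.

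KRT19, the smallest keratin, which lacks the tail domain of the others, was a minor chain in these cells. Its level was 15.6, 14.0 and 15.1 FPKM in NC and 9.09, 7.43 and 6.83 FPKM in siFSCN1, without overlap. The log2 fold change was -1.10 (SE 0.0756, edgeR adjusted p = 3.6e-10), with the widest standard error of the 8.

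KRT80, a type II chain, was 33.1, 34.3 and 32.9 FPKM in NC and 17.4, 17.6 and 16.8 FPKM in siFSCN1. Libraries of a group differed little, and the log2 fold change was -1.12 (SE 0.0414, edgeR adjusted p = 8.4e-14). Its means were 33.4 ± 0.769 and 17.2 ± 0.441 FPKM (SD, n = 3).

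KRT81, a type II hair keratin, was abundant in these lung-derived cells. It was 902, 891 and 921 FPKM in NC and 514, 473 and 426 FPKM in siFSCN1, with a log2 fold change of -1.11 (SE 0.0501, edgeR adjusted p = 1.1e-12). KRT86, its near-identical relative, was 10.4, 9.93 and 10.1 FPKM in NC and 5.49, 5.29 and 4.72 FPKM in siFSCN1, a log2 fold change of -1.14 (SE 0.0632, edgeR adjusted p = 1.9e-11). Both had groups that did not overlap, and their fold changes lay within 1 standard error of each other, while their levels differed widely. KRT83, another hair keratin with 89.3% coding identity to KRT81, was at 1.23, 1.71 and 1.14 FPKM in NC and 0.88, 0.90 and 0.84 FPKM in siFSCN1 (log2 fold change -0.79, SE 0.182, edgeR adjusted p = 8.7e-04). KRT87P, a hair keratin pseudogene of the same cluster, went from 30.3 ± 0.863 FPKM in NC to 16.4, 15.1 and 14.6 FPKM in the siFSCN1 libraries (log2 fold change -1.15, edgeR adjusted p = 1.9e-12). How many reads these loci exchanged was not tested.

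KRT10, a type I keratin of differentiating epidermis, changed least. It was 42.6, 38.9 and 42.8 FPKM in NC and 39.2, 36.1 and 34.2 FPKM in siFSCN1, so that siFSCN1 replicate 1 was above NC replicate 2. On the TMM-scaled CPM the groups did not overlap, at 117, 106 and 116 in NC and 93.7, 88.8 and 83.1 in siFSCN1. The log2 fold change was -0.35 (SE 0.0512, edgeR adjusted p = 8.0e-06), and it ranged from -0.41 to -0.16 over the alternatives, with the largest adjusted p at 0.026 by limma on log2(FPKM + 1).

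FPKM and the fitted fold change are on different scales. FPKM is relative to the mapped fragments of a library, whereas TMM scaling sets the typical gene to no change, and scaling by library totals alone put the median over all tested genes at 0.22 on the log2 scale. In siFSCN1, KRT10 was at 88.1% of NC by mean FPKM and at 78.4% by the fit, and KRT7 at 49.2% and 43.9%. Scaled by library totals, 1 of the 8 (KRT7) was at least 2-fold lower in place of 5, and 8 of 8 were still lower at an adjusted p under 0.05 (edgeR).

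**Figure D2:**
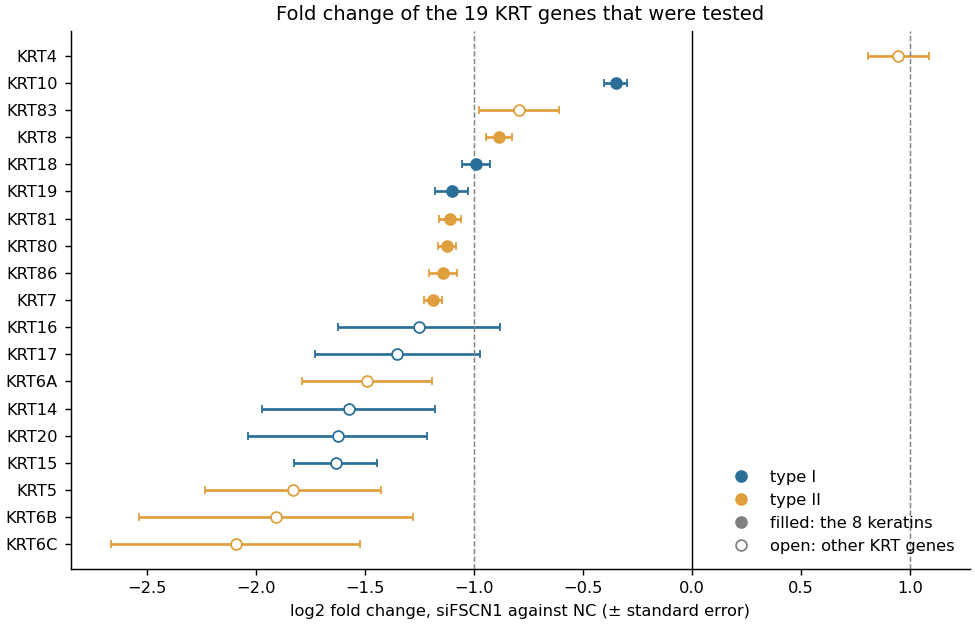
Log2 fold change in siFSCN1 against NC with its standard error for the 19 KRT genes that were tested, type I in blue and type II in orange, filled for the 8 keratins and open for other KRT genes, with dashed lines at a 2-fold change. The 8 lie between -1.19 and -0.35, and KRT4 is the gene to the right of 0.

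The libraries ordered themselves in much the same way for most members. NC replicate 2 had the lowest FPKM of its group for 6 of the 8 keratins, while KRT7 and KRT80 were highest there. In siFSCN1, replicate 1 was the highest library for 7 of the 8, with KRT80 as the exception, and replicate 3 was the lowest for 8 of 8. The share of all tested genes with these orders was not counted, so that they may not be particular to keratins. FSCN1 was also highest in siFSCN1 replicate 1 of its group, at 4.46 FPKM, but was lowest in replicate 2.

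In NC the FPKM values fell in the order KRT18, KRT8, KRT81, KRT7, KRT10, KRT80, KRT19 and KRT86. KRT8 and KRT81 were the neighbours whose NC libraries overlapped, at 905 to 1026 and 891 to 921 FPKM, and in siFSCN1 no neighbours overlapped. This order depends on the length by which counts were divided. The deposited FPKM values divide by all annotated exons of a gene, which come to 6881 bases for KRT8, 3069 for KRT18 and 3999 for KRT7, whereas the representative transcripts are 1784, 1413 and 1625 bases long. KRT8 had more counts than KRT18 in every library, for example 259086 against 219303 in NC replicate 1. Divided by the length of the representative transcript in place of all exons, the mean level in NC was 3943 for KRT18, 3754 for KRT8, 1232 for KRT7 and 905 for KRT81, so that KRT7 moved above KRT81. Fold changes of a gene are the same by either length.

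The 8 keratins took 2.02, 1.83 and 1.92% of all counts in NC and 1.20, 1.09 and 1.04% in siFSCN1. These groups did not overlap (exact two-sided permutation p = 0.1, the smallest that 3 against 3 libraries can give). Summed over the type I genes the level went from 1872 ± 139 to 1071 ± 118 FPKM, or 57.2% of NC. Summed over the type II genes it went from 2422 ± 63.2 to 1332 ± 114 FPKM, or 55.0% of NC (SD, n = 3 for each).

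Since each filament needs both types, the balance of their RNA was compared within libraries, where scaling plays no part. Shares of RNA need not be shares of protein, which these data do not hold. Type I genes made up 44.8, 42.4 and 43.5% of the summed keratin FPKM in NC and 45.3, 43.9 and 44.4% in siFSCN1. The groups overlapped, and the means of 43.6 ± 1.22 and 44.5 ± 0.692% differed by 0.987 percentage points (exact two-sided permutation p = 0.3). Leaving out 1 library at a time moved the difference between 0.399 and 1.62. It was -0.166 percentage points (exact permutation p = 0.8) with KRT7, KRT8, KRT18 and KRT19 alone. Divided by the length of the representative transcript, a choice made after seeing the data, the share was 40.3 ± 0.895% in NC and 40.2 ± 0.557% in siFSCN1 (exact permutation p = 1.0). The type I shares of the groups thus overlapped with all 6 libraries, and the sign of their difference depended on these choices.

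**Figure D3:**
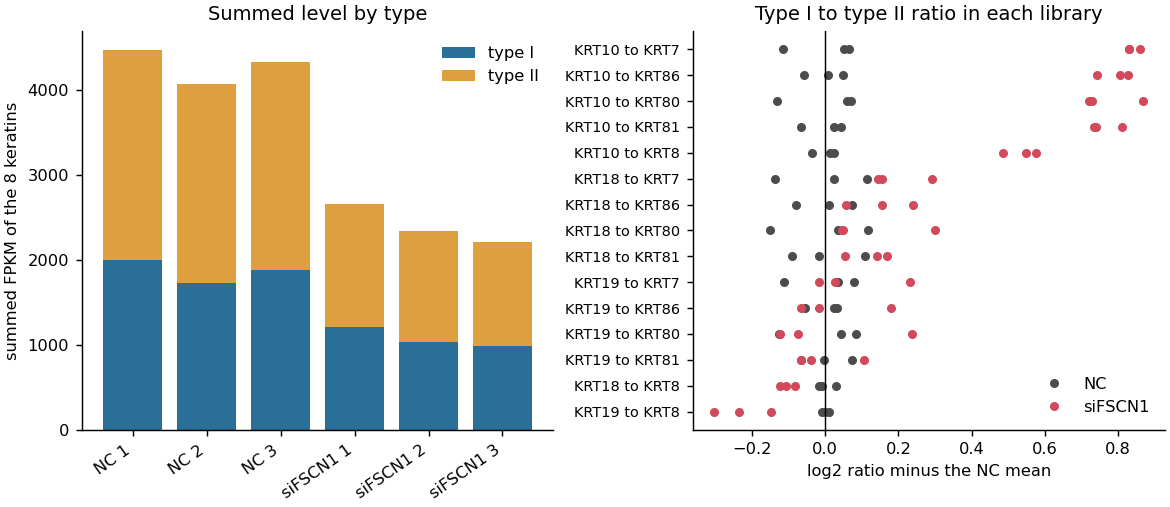
Left, summed FPKM of the type I and type II genes of the 8 keratins in each library. Right, log2 ratio of each type I to each type II gene in each library, minus the NC mean of that ratio (grey NC, red siFSCN1). The 5 ratios with KRT10 lie furthest to the right in siFSCN1.

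Ratios of single members were compared in the same way. Of the 15 ratios of a type I to a type II member, 8 had groups that did not overlap, 6 of them higher in siFSCN1, of which 5 were those of KRT10, and 2 lower. The 15 ratios are built from the same 8 genes, so that they are not independent, and the share of other gene pairs without overlap was not tested. None passed the correction over the 15, where the smallest adjusted p of the exact permutation test was 0.188. With so few libraries this test cannot give a p below 0.1, so that no ratio could have passed. The correction therefore cannot decide whether any of the ratios shifted. The ratio of KRT18 to KRT8, the partners of the main filament, was 1.90, 1.85 and 1.84 in NC and 1.76, 1.73 and 1.71 in siFSCN1. It was lower in each siFSCN1 library, by 0.11 on the log2 scale (exact permutation p = 0.1), a small shift beside a fall of both genes to between 50.4% and 54.2% of NC. The level of this ratio depends on the length used, at means of 1.05 and 0.976 by representative transcript and 0.832 and 0.773 in raw counts, while its shift does not. The ratio of KRT18 to KRT7 went the other way, from 3.92, 3.29 and 3.68 in NC to 4.43, 4.0 and 4.03 in siFSCN1 (log2 difference 0.20, exact permutation p = 0.1). KRT19 to KRT8 was lower in siFSCN1 by 0.22 on the log2 scale (exact permutation p = 0.1), whereas the ratios of KRT19 to the other type II members overlapped between groups.

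KRT10 had the widest shifts. Its 5 ratios to type II members were each higher in siFSCN1, by 0.54 against KRT8 up to 0.84 against KRT7 on the log2 scale (exact permutation p = 0.1 for each). KRT10 made up 0.965 ± 0.0211% of the summed keratin FPKM in NC and 1.52 ± 0.043% in siFSCN1. KRT8 made up 22.7 ± 0.401% and 24.6 ± 0.262%, KRT7 11.7 ± 0.729% and 10.3 ± 0.416%, and KRT18, whose groups overlapped, 42.2 ± 1.22% and 42.7 ± 0.718% (SD, n = 3).

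Several members overlap genes of the other strand. The labels describe a strand-specific dUTP kit, but whether counting used strand is not given in the sources used here. KRT7-AS, which shares 282 exonic bases with KRT7, was 40.9, 41.6 and 33.9 FPKM in NC and 19.7, 19.9 and 15.8 FPKM in siFSCN1 (log2 fold change -1.24, SE 0.0843, edgeR adjusted p = 3.3e-10). Its fall was close to that of KRT7. If strand was not used, reads within the shared bases, 7.05% of the annotated exons of KRT7, cannot be told apart. The gene on the other strand of KRT10, listed as TMEM99 and sharing 61 exonic bases, was higher in siFSCN1, at 6.08, 5.80 and 6.48 FPKM in NC and 8.19, 7.20 and 7.39 FPKM in siFSCN1 (log2 fold change 0.14, edgeR adjusted p = 0.040). It passed the test in 8 of the 15 alternatives. RP11-259K21.6, opposite KRT86 with 221 shared exonic bases, did not pass (log2 fold change 0.46, edgeR adjusted p = 0.19). LINC00592, opposite KRT80 with no exonic bases shared, was higher in siFSCN1 (log2 fold change 0.90, edgeR adjusted p = 0.016). Its means were 0.173 FPKM in NC and 0.363 in siFSCN1. For KRT8 and KRT18 the 525 shared bases make up 7.63% and 17.11% of their annotated exons.

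Beyond the 8, the table held 31 other KRT genes, most of them near 0, and 11 passed the filter. Of these 11, 10 were lower and 1 higher at an adjusted p under 0.05 (edgeR), against 33.2% and 35.1% of all tested genes. At least 2-fold lower were 9, against 4.85% of all tested genes, and the median log2 fold change was -1.57. A low gene can pass the filter through the group where it is higher, so that its direction is then partly set by the filter. KRT6B, for example, had 87, 16 and 12 counts in NC and 16, 15 and 4 in siFSCN1. The counts and the median of these 11 are therefore descriptive. The gene that was higher was KRT4, a type II keratin of the moist stratified epithelium of mouth and oesophagus. Its level was 2.82, 2.10 and 2.17 FPKM in NC and 6.25, 4.95 and 4.14 FPKM in siFSCN1 (log2 fold change 0.95, SE 0.139, edgeR adjusted p = 8.4e-06). The groups did not overlap. KRT4 fell short of a 2-fold rise, a call met by 11.7% of all tested genes, and passed it in 5 of 15 alternatives, among them library totals (1.13).

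The low keratins of stratified epithelia rested largely on a single library. KRT5, KRT6A, KRT6B, KRT14, KRT16 and KRT17 summed to 7.75, 3.44 and 1.98 FPKM in NC replicates 1 to 3 and to 2.11, 1.47 and 1.51 FPKM in the siFSCN1 libraries, so that NC replicate 1 stood apart. KRT14, the basal-layer type I keratin, was at 1.99, 0.90 and 0.44 FPKM in NC and 0.47, 0.50 and 0.28 FPKM in siFSCN1, with overlapping groups (log2 fold change -1.57, SE 0.395, edgeR adjusted p = 1.8e-03). Without NC replicate 1, 3 other KRT genes (KRT15, KRT20 and KRT6A, named after their values were seen) were at least 2-fold lower in place of 9, and 6 in place of 10 were lower at an adjusted p under 0.05 (edgeR). KRT20 in turn rested on NC replicate 3 (0.94 FPKM, against 0.31 and 0.35 in the other NC libraries), and without it stood at -0.91 on the log2 scale (edgeR adjusted p = 0.049). KRT15 was among the steadier of them, at 0.41 ± 0.04 FPKM in NC and 0.147 ± 0.00577 in siFSCN1. The 8 keratins did not share this pattern, since 5 of them were at least 2-fold lower without NC replicate 1 as well. Of 58 keratin pseudogenes in the table, 5 were tested. At an adjusted p under 0.05 (edgeR) 4 were lower and 1, KRT8P12, higher, against 33.2% and 35.1% of all tested genes. The limit of the filter given above for low genes holds for these as well. KRT20 and KRT23, the other simple-type keratins listed, were near 0 at means of 0.533 and 0.0333 FPKM in NC.

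Keratin filaments are bound by plakins and armadillo proteins, at desmosomes and elsewhere. Of 11 such genes, 9 were tested, and 7 were higher and 2 lower in siFSCN1 at an adjusted p under 0.05 (edgeR), with a median log2 fold change of 0.50. By that rule 35.1% of all tested genes were higher. JUP, plakoglobin, was 24.8, 21.6 and 24.1 FPKM in NC and 55.4, 51.0 and 52.2 FPKM in siFSCN1 (log2 fold change 1.00, SE 0.0474, edgeR adjusted p = 2.3e-12), at the 2-fold limit, which it passed in 9 of 15 alternatives. DSP, desmoplakin, which anchors keratin filaments to the desmosome, had a log2 fold change of 0.30, and PKP2 and PPL had 0.65 and 0.67. PKP3 was lower at -0.47. PLEC, plectin, was lower at -0.12, and stood at 0.07 when scaled by library totals, with 4 of 15 alternatives above 0. Among 7 desmosomal cadherins, 3 were tested and DSG2 and DSC2 were higher, at log2 fold changes of 0.17 and 0.48 (edgeR adjusted p = 0.015 and 1.8e-03). The DSG2 call was weak, since its CPM groups overlapped and it passed in 10 of 15 alternatives, with an adjusted p of 0.058 by DESeq2 and of 0.054 to 0.098 in the fits without NC replicate 1, NC replicate 3, siFSCN1 replicate 2 or siFSCN1 replicate 3.

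Other proteins that bind keratins had a different make-up. Of 11 genes, most of them 14-3-3 proteins, 9 were lower at an adjusted p under 0.05 (edgeR), against 33.2% of all tested genes. The other 2, TCHP and YWHAG, did not pass, and the median of the 11 was -0.36. Scaled by library totals, 7 were lower and 2 higher. SFN, the epithelial 14-3-3 protein sigma, was 231, 234 and 233 FPKM in NC and 120, 108 and 106 FPKM in siFSCN1 (log2 fold change -1.23, SE 0.0414, edgeR adjusted p = 2.7e-14), and was the gene of this list called at least 2-fold lower.

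Of 16 intermediate filament genes that are not keratins, 12 were tested, with a median of -0.42. At an adjusted p under 0.05 (edgeR) 6 were lower and 2 higher, against 33.2% and 35.1% of all tested genes. VIM, the filament of mesenchymal cells, was lower as well, at 140.1 ± 3.07 FPKM in NC and 111 ± 3.95 in siFSCN1 (log2 fold change -0.50, SE 0.036, edgeR adjusted p = 8.0e-10), a smaller fall than in 7 of the 8 keratins. The nuclear lamins LMNB2 (log2 fold change -1.42) and LMNB1 (log2 fold change -1.19) were the pair called at least 2-fold lower.

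**Figure D4:**
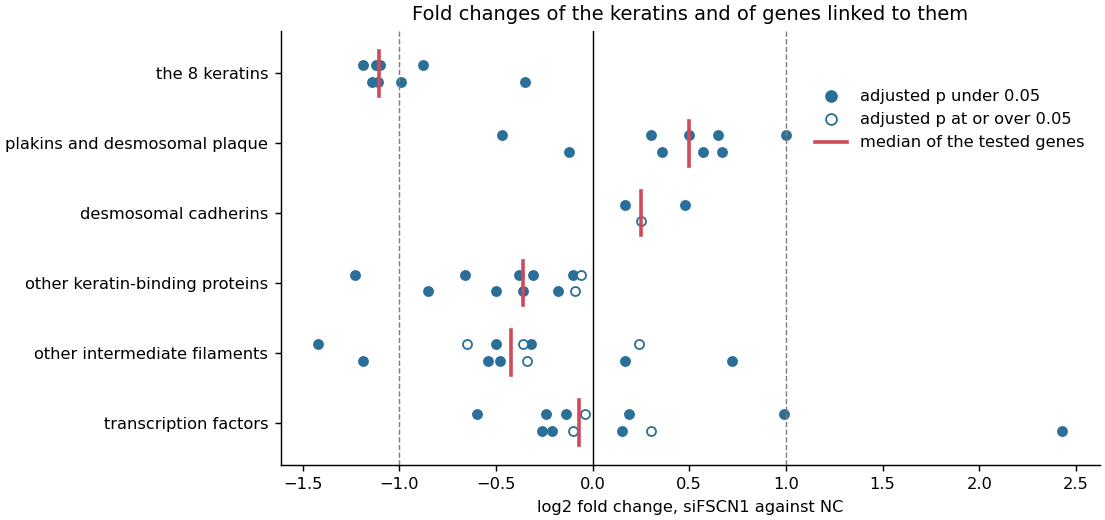
Log2 fold change in siFSCN1 against NC of each tested gene of the 8 keratins and of the lists of linked genes, filled at an adjusted p under 0.05, with a red bar at the median of each list and dashed lines at a 2-fold change. The keratins have a median of -1.11, plakins and desmosomal plaque genes 0.50, and intermediate filaments other than keratins -0.42.

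Transcription factors known to act on epithelial keratin genes went both ways. Of 15 listed, 14 were in the table and 12 were tested, of which 5 were lower and 4 higher at an adjusted p under 0.05 (edgeR), with a median of -0.07, counts not far from the shares of all tested genes (33.2% lower and 35.1% higher). Scaled by library totals, the 5 lower genes no longer passed and 4 were higher. EHF was at 1.58 ± 0.105 FPKM in NC and 3.52 ± 0.337 in siFSCN1 (log2 fold change 0.99, edgeR adjusted p = 1.6e-09). TP63, the factor of basal epithelia, was at most 0.05 FPKM in NC and 0.28, 0.26 and 0.21 FPKM in siFSCN1 (log2 fold change 2.43, SE 0.279, edgeR adjusted p = 4.0e-07), still close to 0. KLF5, which acts in many epithelia, had a log2 fold change of -0.26 and passed in 12 of 15 alternatives. ELF3 was at -0.14 and passed in 9, and its direction turned when scaled by library totals (0.04).

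Of 8 markers of epithelial cells other than keratins, 6 were tested. At an adjusted p under 0.05 (edgeR) 3 were higher in siFSCN1 and 1, ELF3, lower, with the direction of ELF3 dependent on scaling as above. By that rule 35.1% of all tested genes were higher and 33.2% lower. CDH1, E-cadherin, was 9.41, 9.02 and 9.25 FPKM in NC and 26.5, 25.9 and 26.6 FPKM in siFSCN1 (log2 fold change 1.35, SE 0.0408, edgeR adjusted p = 8.0e-15). MUC1 was also at least 2-fold higher, at a log2 fold change of 1.42. EPCAM had 0.29 (edgeR adjusted p = 0.023) and passed in 11 of 15 alternatives. The EPCAM call was lost by DESeq2 (adjusted p = 0.066) and without NC replicate 3, siFSCN1 replicate 1 or siFSCN1 replicate 2. Of 9 markers of basal or squamous cells, 8 were tested, and the keratins KRT5, KRT6A, KRT14 and KRT15 were at least 2-fold lower and TP63 and SOX2 at least 2-fold higher, each at under 2 FPKM in every library. The SOX2 call was lost by DESeq2 (adjusted p = 0.068) and without NC replicate 3 (log2 fold change 0.75, edgeR adjusted p = 0.086), and KRT5 and KRT14 were less than 2-fold lower without NC replicate 1, at -0.96 and -0.82. Of the cornified envelope list, 2 of the 11 genes in the table were tested, and CNFN was lower, at a log2 fold change of -0.44 (edgeR adjusted p = 2.8e-03), a call that was lost when scaled by library totals.

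The profile of KRT7, KRT8, KRT18 and KRT19 over the 6 libraries was then set beside all 5314 tested genes with a mean of at least 5 FPKM. By Pearson's r of log2 CPM with the mean standardised profile of these 4 genes, TRAF4 (0.9997), PRXL2A (0.9995), MTLN (0.9995), ERF (0.9995) and BANF1 (0.9995) were most alike. These values carry little, since 6 libraries in 2 groups give a high r to any gene that is lower in siFSCN1, and 2177 of the 5314 genes had an r above 0.95. KRT81 came at rank 187, KRT86 at 283, KRT80 at 1156 and KRT10 at 1494.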

How the data were processed

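Polyadenylated RNA of 6 A549 libraries was sequenced. Per the study's methods, the authors trimmed reads (FASTX Toolkit), used HISAT2 for alignment on GRCh38 and counted uniquely mapped reads, while the submitters' processing notes name bcl2fastq and TopHat2. The deposited tables hold raw counts per gene (30230 rows) and the FPKM values the authors derived from them. For the 8 keratins, the lengths implied by counts and FPKM equalled all annotated exons of GENCODE 44.

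Genes were filtered with filterByExpr and tested with the quasi-likelihood test of edgeR 4.0.16 (R 4.3.3) after TMM scaling, with Benjamini-Hochberg adjustment over 17076 genes. A call needed an adjusted p under 0.05 and a change of at least 2-fold. Here p-values measure the spread between libraries, which may be technical. Shares and ratios used exact two-sided permutation tests of libraries, whose smallest p is 0.1. Alternatives were RLE, upper quartile and library total scaling, no filter and a stricter one, DESeq2 1.42.0, limma 3.58.1 on log2(FPKM + 0.1) and log2(FPKM + 1), a replicate block, and leaving out each library. The edgeR step was tested on simulated data. Same-numbered libraries did not deviate together (correlations of -0.035, 0.04 and -0.084), and no libraries of a group agreed within sampling noise.

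The members and gene lists were chosen with earlier results of these data known. Named genes were the 8 members, FSCN1, other KRT genes of at least 1 FPKM and tested genes overlapping a member on the other strand. The 5 genes most alike in profile and, of each list, called genes with at least a 2-fold change (up to 4) were named too. Further genes were named for their role, after their values were seen. Coding identity came from global alignment (Biopython 1.88), and primers from the study's supplement.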

Additional observations from a re-analysis of the deposited data

How the results depend on the processing

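Each of the 8 keratins was lower at an adjusted p under 0.05 in each of its 15 alternatives, 120 in all. The number at least 2-fold lower, 5 with TMM scaling, was 6 with RLE scaling and with DESeq2, where KRT18 joined it, 3 with upper quartile scaling, 1 with library totals, and 1 by limma with either pseudocount on FPKM (0.1 or 1), and between 5 and 6 with 1 library left out. With a replicate block it was 5, and the block changed no other call: the type I share difference stayed at 0.987 percentage points (exact sign-flip p = 0.25). That difference reversed to -0.166 with KRT7, KRT8, KRT18 and KRT19 only and, in an alternative added after seeing the data, to -0.0651 by the length of the representative transcript, and ranged from 0.399 to 1.62 with 1 library left out. Log2 ratios near 0 reversed as well: with 1 library left out, KRT19 to KRT80 ran from -0.1 to 0.0806, KRT19 to KRT81 from -0.049 to 0.0388 and KRT19 to KRT86 from -0.0387 to 0.08, the lowest without siFSCN1 replicate 1 each time. Of the 11 other KRT genes, 9 at least 2-fold lower became 7 by DESeq2, and 3 and 0 by limma with the smaller and the larger pseudocount. The 10 lower at any size became 8 by DESeq2, and 5 and 3 by limma. These alternatives were also added after seeing the data. With a pseudocount of 1, changes of genes near or below 1 FPKM are drawn towards 0. A 2-fold call was hardly possible there, so that the 0 says little about these genes. The replicate number is no shared culture or day in the labels. With 3 libraries a group, the exact permutation tests of shares and ratios cannot give a p below 0.1. They therefore cannot decide whether small shifts between partners took place.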
